A study of Homo sapiens with 6 samples.

Results

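The 4 arrays described here, of 6 in the series, compare Ha-RAS transformed Caco-2 cells with control Caco-2 cells, at 2 arrays per group, and were chosen by their sample titles. Caco-2 is an established human colon adenocarcinoma line whose cells form a polarised epithelium and make products of absorptive enterocytes and of hepatocytes. The transformed cells are 1 line, CacoH2, so every difference given is one between that line and its untransformed parent, and the replicate arrays measure the spread between samples of a line. Both groups were untreated and were harvested below confluence. The submitters describe 1 of the 2 Ha-RAS samples, replicate B, as a fast-growing line with an EMT phenotype, which stands for epithelial-to-mesenchymal transition, and give no description for replicate A. The other 2 arrays, of Ki-RAS transformed cells (line CacoK15), entered the estimate of the spread and are used where a Ha-RAS level is set beside that of another transformed line.

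In an epithelial-to-mesenchymal transition, cells held in a sheet by adhesion molecules and keratin filaments take on the shape and motility of mesenchymal cells. Vimentin filaments, matrix proteins and secreted proteases are commonly seen to rise in it, and surface and differentiation products of the epithelium to fall. Ha-RAS is a small GTPase that passes growth factor signals to kinase cascades, and its activated form is a classical inducer of this change in epithelial lines. The lists of genes below follow these roles.

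The array names its probes only by the GI number of a sequence record. Gene names are given here for 58 probes (57 genes) whose number is that of a human RefSeq record known from outside the files. The files hold no gene names with which to check these identities. All other probes are given by their ID. The suffix S marks a single transcript, A all isoforms and I 1 isoform by the manufacturer's convention. A probe was called detected at a detection score of at least 0.99, where the score approaches 1 for signals above the negative controls. Levels are either deposited signals, in intensity units on a linear scale, or normalized log2 intensities. Levels of different probes are not comparable.

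Each array measured 24350 probes. The Ha-RAS arrays detected 10092 and 10192 of them and the control arrays 9245 and 9702, with a median of 42 beads behind a signal on all 4. Probes detected on both arrays of either group numbered 10391 and were tested. The 2 Ha-RAS arrays differed by 2-fold or more at 2 of these probes and the 2 control arrays at 32, whereas the group means differed by that much at 2595 (24.97%). As separate markers of lineages that a colon line should lack, the probes for MPO (neutrophil myeloperoxidase) and INS (insulin) were undetected on all 6 arrays. In samples of bulk RNA, fewer cells with a transcript and less of it per cell cannot be told apart.

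Of the probes tested, 56.1% differed between Ha-RAS and control cells at an adjusted p below 0.05 in limma (Benjamini-Hochberg). Calls in favour of the Ha-RAS line made up 29.9% of probes and calls in favour of the control 26.2%. The split between directions moved with the scaling of the arrays, from 53.28% of calls higher with quantile normalization to 63.21% with a common median, where the median log2 difference over all probes tested was 0.23 in place of 0.07. With cyclic loess 49.10% were higher. At 4-fold or more 369 probes were higher and 452 lower, and at 8-fold or more 138 and 195. Both lines detected 8203 of the tested probes, of which 49.99% were called, with a median size of 0.83 on the log2 scale. A further 976 probes were detected on both Ha-RAS arrays and no control array, and 581 on both control arrays and no Ha-RAS array. Such probes entered the test through the group where they are bright, so their being called (814 and 573) is in large part set by their selection. The typical bound on their change differed. Its median was at least 1.37-fold for those detected in Ha-RAS and not in control cells, and at least 2.35-fold for the reverse. Of these probes, 298 of the 976 and 193 of the 581 were also detected on both Ki-RAS arrays.

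**Figure D1:**
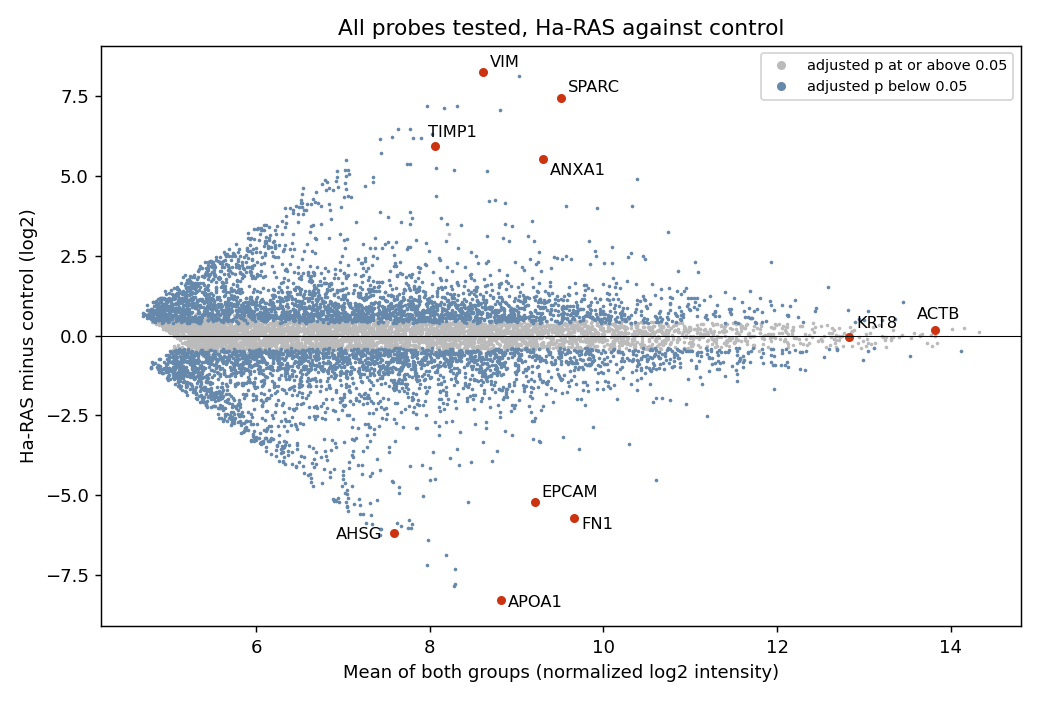
Difference between Ha-RAS and control (log2, vertical axis) against the mean of both groups (normalized log2 intensity, horizontal axis) for all 10391 probes tested, 1 point per probe, with 10 named transcripts in red and other called probes in blue. The straight outer edges are formed by probes at background in 1 group. VIM and APOA1 lie at the extremes, at 8.26 and -8.29, while KRT8 and ACTB lie near 0 at the bright end.

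Vimentin (VIM, GI_4507894-S), the intermediate filament protein of mesenchymal cells, had the largest bound of any probe detected in Ha-RAS and not in control cells. Its deposited signal was 7912.1 and 7408.6 on the Ha-RAS arrays against 65.0 and 63.5 on the control arrays. The control values lie among the negative controls, with detection scores of 0.635 and 0.605, and the groups are far apart. Replicate A, which has no phenotype in its label, was as bright as replicate B. Between 51 and 59 beads stood behind each of these 4 signals, with a standard error between beads of 32.9 and 35.4 units on the Ha-RAS arrays. On the log2 scale VIM rose from 4.48 ± 0.021 (SD, n = 2) to 12.74 ± 0.066, or at least 187-fold (limma adjusted p = 3.08e-10). Without background correction the log2 difference was 6.66 in place of 8.26.

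Both probes for S100A4, a small calcium-binding protein linked to cell motility, rose as well. The isoform probe GI_9845514-I read 192.8 and 458.5 on the control arrays and 9302.0 and 7527.4 on the Ha-RAS arrays. The probe for all isoforms, GI_9845515-A, read 392.1 and 329.4 against 6518.1 and 5561.3. Unlike vimentin, S100A4 was thus already detected in the parent line, and the control arrays disagreed on its isoform probe by more than the Ha-RAS arrays did. The log2 differences were 4.92 ± 0.30 (SE; adjusted p = 3.65e-07) and 4.06 ± 0.24 (adjusted p = 2.55e-07), and the first became 5.54 without control replicate B.

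To show what lies at the start of these genes, the RefSeq promoter windows (GRCh38.p14, 250 bases before to 50 after the start, gene strand, 5′ to 3′) are given for both mesenchymal markers and for APOA2, an apolipoprotein gene whose transcript was undetected in Ha-RAS cells. Promoters of 42 of the 57 named genes are in the table used, and APOA1 is not among them. Capitals mark matches on either strand to 4 motifs. The E-box searched, which SNAIL and ZEB repressors can bind, was CACCTG. The AP-1 element, a known end point of RAS signalling, was searched as TGANTCA. The GC box, bound by SP1 and its relatives, was searched as CCGCCC. The TATA box, which positions the polymerase, was searched as TATAAA. VIM lies at chr10:17227991-17228290 on the plus strand, S100A4 at chr1:153545757-153546056 and APOA2 at chr1:161223579-161223878, both on the minus strand.
VIM: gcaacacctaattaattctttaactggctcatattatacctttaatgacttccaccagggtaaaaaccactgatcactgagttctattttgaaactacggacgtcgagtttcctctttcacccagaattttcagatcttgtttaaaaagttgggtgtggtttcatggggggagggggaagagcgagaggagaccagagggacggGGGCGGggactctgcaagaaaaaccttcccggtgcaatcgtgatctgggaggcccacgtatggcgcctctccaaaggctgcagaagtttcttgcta
S100A4: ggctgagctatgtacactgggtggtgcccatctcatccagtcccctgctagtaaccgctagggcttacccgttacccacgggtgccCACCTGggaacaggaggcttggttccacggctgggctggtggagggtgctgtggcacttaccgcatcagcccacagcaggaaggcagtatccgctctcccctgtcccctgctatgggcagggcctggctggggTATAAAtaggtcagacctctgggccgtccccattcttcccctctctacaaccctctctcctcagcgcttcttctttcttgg
APOA2: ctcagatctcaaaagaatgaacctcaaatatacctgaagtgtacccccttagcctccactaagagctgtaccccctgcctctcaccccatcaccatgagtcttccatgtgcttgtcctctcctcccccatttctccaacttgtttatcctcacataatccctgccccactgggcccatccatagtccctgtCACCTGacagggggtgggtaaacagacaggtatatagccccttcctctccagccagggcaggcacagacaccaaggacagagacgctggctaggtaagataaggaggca
The VIM window holds a GC box that starts 46 bases before the transcript start. In S100A4 an E-box starts 164 bases and a TATA box 31 bases before the start, and in APOA2 an E-box starts 59 bases before it. No AP-1 match stands in the 3 windows. Over all 35116 promoter windows of that length, 20.6% hold the E-box, 7.7% the AP-1 element, 45% the GC box and 11.5% the TATA box, and these matches are a description of letters only. The E-box occurs here beside a gene that rose and beside one that fell.

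Secreted proteins that build or remodel the matrix followed vimentin. SPARC (GI_4507170-S), a collagen-binding glycoprotein of the matrix, read 103.5 and 101.3 on the control arrays and 11882.3 and 9997.8 on the Ha-RAS arrays. Both control signals were just above the detection limit, and the log2 level rose by 7.46 ± 0.16 (SE; adjusted p = 6.02e-10), or 176-fold, and 92.1-fold without background correction. TIMP1 (GI_4507508-S), an inhibitor of matrix metalloproteinases, read 75.3 and 88.4 against 2780.9 and 2216.5, and only 1 of the 2 control arrays detected it. Its log2 level rose by 5.95 ± 0.20 (adjusted p = 3.93e-09), or by 4.68 without background correction. PLAU (GI_4505862-S), the protease urokinase that activates plasminogen, rose 17.9-fold, from 146.4 and 172.8 to 2633.0 and 2071.4 (adjusted p = 7.84e-09). IGFBP7 (GI_4504618-S), a secreted binding protein of growth factors, rose 3.87-fold, from 84.6 and 103.8 to 247.5 and 255.1 (adjusted p = 1.14e-05), or 2.35-fold without background correction. TGFBI (GI_4507466-S), a matrix protein induced by TGF-beta, was bright in both lines and rose 1.77-fold (adjusted p = 0.00182).

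Not all genes of this kind went up. Fibronectin (FN1, isoform probe GI_16933541-I), a matrix protein commonly listed among mesenchymal markers, read 5290.4 and 5819.4 on the control arrays and 184.5 and 173.1 on the Ha-RAS arrays, which do not overlap. Its log2 level fell by 5.72 ± 0.18 (SE; adjusted p = 2.67e-09), or 52.7-fold. The probe reads 1 isoform, and the level of other fibronectin isoforms was not analysed here. CTGF (GI_4503122-S, now CCN2), a matricellular protein, was lower by 0.71 ± 0.24 on the log2 scale (adjusted p = 0.0295), a call that was lost with any 1 of the 4 arrays left out (adjusted p of 0.055 to 0.142), with a common median (adjusted p = 0.0538) and with all probes tested (adjusted p = 0.102).

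Across this mesenchymal and matrix list, 10 of 13 records were on the array and all 10 probes (9 genes) were tested, of which 8 rose and 2 fell. The median log2 difference was 4.11, against 0.07 for all probes tested, of which 29.9% were called higher. One of the 10, VIM, entered the test through the Ha-RAS arrays alone, and TIMP1 through those and 1 control array. The list was drawn up with earlier results of these data known.

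**Figure D2:**
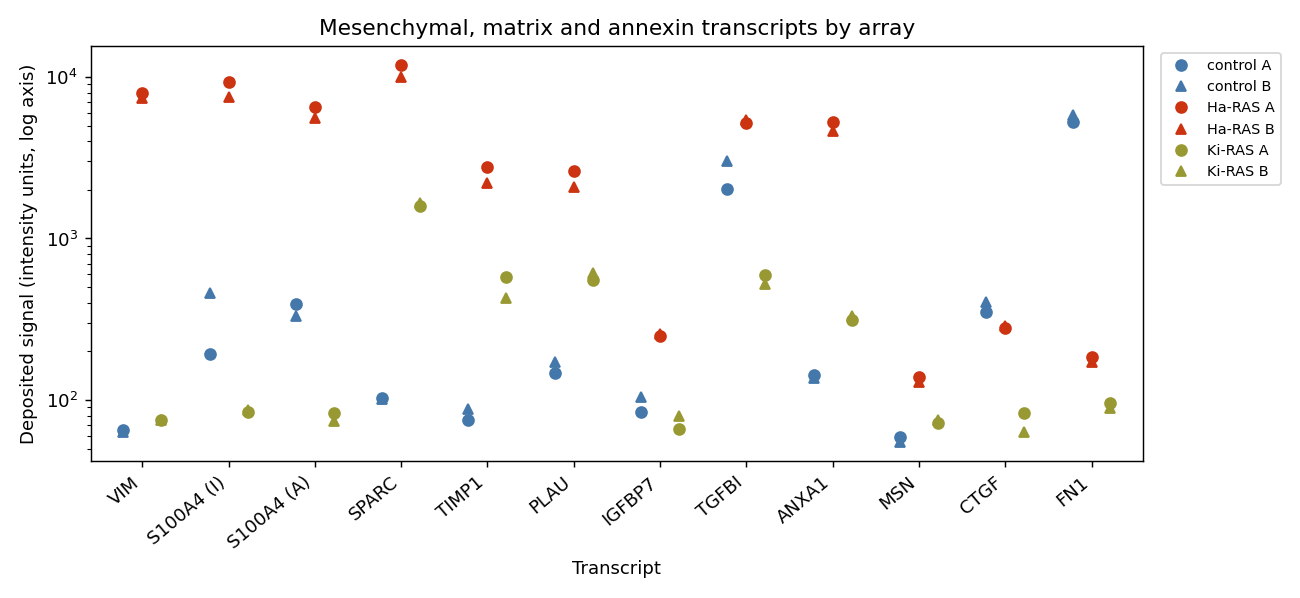
Deposited signal (intensity units, log axis) of 12 mesenchymal, matrix and membrane-associated transcripts on all 6 arrays, with circles for replicate A, triangles for replicate B and colours for the cell line. The Ha-RAS points stand above the control points for VIM, both S100A4 probes, SPARC, TIMP1, PLAU, IGFBP7, TGFBI, ANXA1 and MSN, and below them for CTGF and FN1.

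Proteins that couple the membrane to actin changed in part. Annexin A1 (ANXA1, GI_4502100-S), a calcium-dependent phospholipid-binding protein, read 142.7 and 136.3 on the control arrays and 5283.7 and 4642.2 on the Ha-RAS arrays. It rose 47.0-fold, or 30.6-fold without background correction (log2 difference 5.55 ± 0.17 SE, adjusted p = 2.50e-09), and was the probe with the second highest rise among those detected on all 4 arrays, after SPARC. Moesin (MSN, GI_4505256-S), which tethers actin to the membrane and is typical of mesenchymal and blood cells, was undetected in control cells at 59.4 and 55.0 and read 139.6 and 130.1 in Ha-RAS cells. That is a rise of at least 1.99-fold (adjusted p = 2.17e-06). The bound is low because the Ha-RAS signal was close to background, and the size of the rise itself was not measured. Its epithelial relative ezrin (EZR, GI_21614498-S) read 1266.5 and 1865.5 in control and 1612.2 and 1380.5 in Ha-RAS cells. These deposited signals overlap, whereas the normalized log2 levels do not (10.48 and 10.75 in control, 10.33 and 10.31 in Ha-RAS cells). The log2 difference of EZR was -0.30 ± 0.16 and did not pass the test (adjusted p = 0.132).

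S100A11 (GI_5032056-S) and annexin A2 (ANXA2, GI_4757755-S), further calcium-binding proteins at the membrane, rose 2.62-fold and 1.79-fold (adjusted p = 2.77e-05 and 0.00154). The remaining members of the list are abundant actin-associated transcripts and did not pass the test. Beta-actin (ACTB) had a log2 difference of 0.17 ± 0.15, cofilin (CFL1) of -0.16 ± 0.16, TAGLN2 of 0.12 ± 0.17 and S100A10, the partner of annexin A2, of 0.17 ± 0.15. For CFL1 the sign turned with a common median in place of quantile normalization, and for TAGLN2 without Ha-RAS replicate A. In all, 4 of the 9 members tested rose and none fell, with a median of 0.17, against 29.9% higher and 26.2% lower calls over all probes tested, and MSN entered through the Ha-RAS arrays alone.

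Of the epithelial and adhesion list, some members fell and others did not pass the test. Keratin 8 (KRT8, GI_4504918-S), the main filament protein of simple epithelia, read 7176.4 and 7111.8 on the control arrays and 9875.9 and 6671.8 on the Ha-RAS arrays. The groups overlap, and the log2 difference was -0.04 ± 0.18 (SE; adjusted p = 0.856), with a sign that turned under other settings, so that vimentin and keratin 8 transcripts were both bright in the same Ha-RAS samples. The keratin 18 probe (GI_40354194-I), for 1 isoform, read between 64.9 and 82.7 on these 4 arrays and was not detected on any of them.

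EPCAM (GI_4505058-S), a homophilic adhesion molecule of epithelia, fell. It read 3326.8 and 3545.5 in control and 170.1 and 154.3 in Ha-RAS cells, a 37.6-fold fall (log2 difference -5.23 ± 0.18, adjusted p = 5.95e-09), and remained detected on both Ha-RAS arrays. Without background correction its log2 difference was -4.64. It was also the probe with the second lowest difference among those detected on all 4 arrays, after FN1.

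TFF1 (GI_4507450-S), a trefoil peptide secreted onto mucosal surfaces, and CEACAM5 (GI_11386170-S), the carcinoembryonic antigen, dropped below detection. TFF1 read 547.7 and 978.2 against 78.2 and 80.2, a fall of at least 21.8-fold (adjusted p = 2.34e-08). CEACAM5 read 441.3 and 452.1 against 84.8 and 79.2, a fall of at least 12.5-fold (adjusted p = 2.72e-08). Galectin-3 (LGALS3, GI_4504982-S), a carbohydrate-binding protein, fell 2.91-fold (adjusted p = 0.000191).

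Of the junction proteins, 1 of 3 passed the test. An isoform probe for plakoglobin (JUP, GI_4504810-I), a component of desmosomes and adherens junctions, read 128.8 and 97.2 in control and 87.5 and 68.6 in Ha-RAS cells, where neither array detected it. The fall was at least 1.99-fold (adjusted p = 0.00283), whereas the fitted fall was 1.58-fold without background correction. Alpha-catenin (CTNNA1, GI_4503126-S), which links cadherins to actin, had a log2 difference of -0.32 ± 0.15 (adjusted p = 0.0995), and desmoplakin (DSP, GI_4758199-S), which anchors keratin at desmosomes, one of 0.55 ± 0.26 (adjusted p = 0.0916). Neither passed the test, though DSP passed it with a common median (adjusted p = 0.0459) and without control replicate B (adjusted p = 0.00558). Over the epithelial and adhesion list, 5 of 8 probes tested fell and none rose, against 26.2% lower calls over all probes. However, 3 of the 5 entered the test through the control arrays alone, and 98.6% of all such probes were called. The count therefore says little about the list.

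Apolipoproteins and other plasma proteins, many of them secreted by enterocytes or hepatocytes, were lower in Ha-RAS cells. Apolipoprotein A-I (APOA1, GI_4557320-S), the main protein of high-density lipoprotein, read 6282.3 and 8974.2 on the control arrays and 76.2 and 78.2 on the Ha-RAS arrays, where it was undetected. The fall was at least 249-fold (log2 level 12.97 ± 0.15 to 4.67 ± 0.10, SD, n = 2; adjusted p = 3.08e-10), the largest bound of any probe lost in Ha-RAS cells. APOA2 (GI_4502148-S), its partner in high-density lipoprotein, read 1255.3 and 1748.9 against 61.1 and 63.1, at least 46.8-fold lower (adjusted p = 9.96e-10). APOB (GI_4502152-S), the structural protein of chylomicrons and low-density lipoprotein, read 744.5 and 822.7 against 64.3 and 64.2, at least 23.7-fold lower (adjusted p = 2.64e-09).

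APOH, APOC3 and APOD were likewise detected on both control arrays and on neither Ha-RAS array, with bounds of 43.8-fold, 10.1-fold and 9.60-fold. APOE (GI_4557324-S), a ligand of lipoprotein receptors, was the exception in remaining detected. It read 1742.1 and 1964.6 in control and 297.9 and 248.9 in Ha-RAS cells, a 9.98-fold fall (adjusted p = 1.12e-07). The other plasma proteins of the list were not detected on either Ha-RAS array. AHSG, a carrier of calcium phosphate, fell at least 51.3-fold and alpha-fetoprotein (AFP) at least 18.2-fold. Transthyretin (TTR), the thyroid hormone carrier, fell at least 14.6-fold. Antithrombin (SERPINC1) fell at least 1.92-fold from a signal near background, whereas its fitted fall was 1.56-fold without background correction. All 11 members tested fell, 7 apolipoproteins and 4 other plasma proteins, against 26.2% lower calls over all probes tested. However, 10 of them entered the test through the control arrays alone, and 98.6% of all such probes were called, so nothing particular to the list can be read from the count. With undetected members at their bounds the median log2 difference was at most -4.19, and the fitted median was -3.04 without background correction.

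Among genes of the absorptive cell, villin (VIL1, GI_6005943-S), which bundles actin in microvilli, read 219.8 and 274.9 in control and 63.9 and 62.5 in Ha-RAS cells, at least 6.19-fold lower (adjusted p = 2.90e-08). The liver-type fatty acid-binding protein (FABP1, GI_4557576-S) fell 30.9-fold, from 905.0 and 1349.6 to 98.8 and 85.0 (adjusted p = 5.24e-09), or 13.4-fold without background correction. Its epidermal-type relative (FABP5, GI_4557580-S) rose 2.38-fold, from 1414.4 and 1634.6 to 4340.0 and 4260.4 (adjusted p = 0.000138). The values of either pair do not overlap, so that 2 members of a family with related lipid cargo moved in opposite directions. Carbonic anhydrase II (CA2, GI_4557394-S), an enzyme of acid-base transport, rose 3.48-fold (adjusted p = 5.80e-05). Aminopeptidase N (ANPEP), a brush border enzyme, was undetected on all 4 arrays and was not tested. The list thus gave 2 members higher and 2 lower of 4 tested, where 56.1% of all probes were called.

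**Figure D3:**
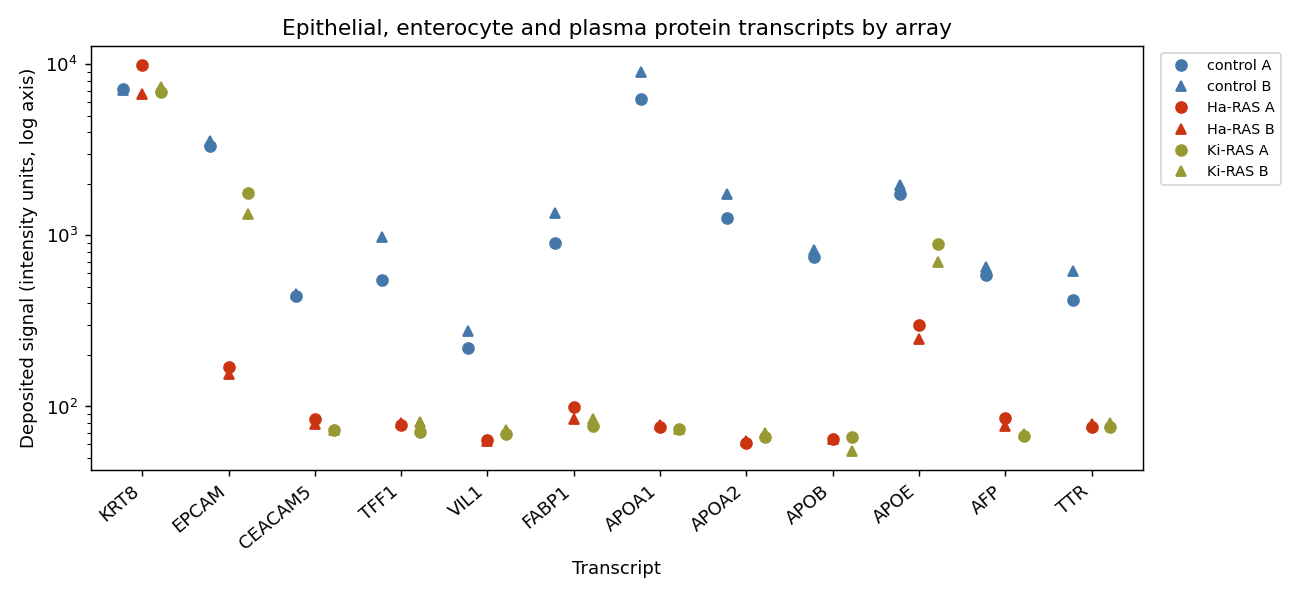
Deposited signal (intensity units, log axis) of 12 epithelial, enterocyte and plasma protein transcripts on all 6 arrays, with circles for replicate A, triangles for replicate B and colours for the cell line. KRT8 is bright in all 3 lines, whereas the control points of the other 11 transcripts stand above the Ha-RAS points, which lie near background for all but EPCAM and APOE.

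All 5 members of the cell cycle list that were on the array rose. CKS2 (GI_4502858-S), a subunit of cyclin-dependent kinases, rose 2.79-fold, from 543.4 and 618.0 to 2036.8 and 1484.0 (adjusted p = 5.87e-05). RRM2, the regulated subunit of the enzyme that makes deoxyribonucleotides, rose 1.88-fold and TYMS, thymidylate synthase, 1.69-fold (adjusted p = 0.0026 and 0.00216). TK1 (thymidine kinase) and CKS1B rose by 0.61 and 0.58 on the log2 scale (adjusted p = 0.00914 and 0.00977). The call of TK1 was lost without control replicate A or Ha-RAS replicate A (adjusted p = 0.0548 and 0.0565), and that of CKS1B without control replicate A or Ha-RAS replicate B (adjusted p = 0.0554 and 0.0788). The median log2 difference of the list was 0.76, against 0.07 for all probes tested, of which 29.9% were called higher.

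The transcript of Ha-RAS itself bears on the labels. The probe for all isoforms of HRAS (GI_4885424-A) read 117.7 and 126.9 on the control arrays and 267.8 and 203.0 on the Ha-RAS arrays, which do not overlap. It rose 2.13-fold (log2 difference 1.09 ± 0.17 SE, adjusted p = 0.000297). The Ki-RAS arrays read 172.6 and 172.2, and the difference between the transformed lines did not pass the test (0.20 on the log2 scale, adjusted p = 0.331), so the probe does not by itself tell the Ha-RAS from the Ki-RAS arrays. Whether it can read the introduced copy depends on the part of the transcript that it matches, which the sources used here do not give. ARAF, a kinase that binds active RAS, and the GTPase RHOA had log2 differences of -0.21 and 0.16, neither of which passed the test (adjusted p = 0.275 and 0.418).

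Glycolytic enzymes, another class that RAS is known to affect, gave 2 lower calls of 4, against 26.2% over all probes tested. Among them, ALDOC (aldolase C) fell 6.20-fold, from 342.0 and 802.2 to 144.8 and 134.5 (adjusted p = 1.96e-05), with control arrays that differed from each other by more than 2-fold. GPI (glucose phosphate isomerase) was lower by 0.42 on the log2 scale (adjusted p = 0.0385). That call was lost without Ha-RAS replicate A, Ha-RAS replicate B or control replicate B (adjusted p = 0.101, 0.185 and 0.124) and with a common median (adjusted p = 0.438). GAPDH and LDHA had log2 differences of -0.36 ± 0.15 and 0.08 ± 0.15 (adjusted p = 0.068 and 0.669). GAPDH passed the test as lower without background correction (adjusted p = 0.02), with a background offset of 50 (adjusted p = 0.026) and with an intensity trend (adjusted p = 0.0115). Under each of these settings 3 of 4 members were called lower.

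**Figure D4:**
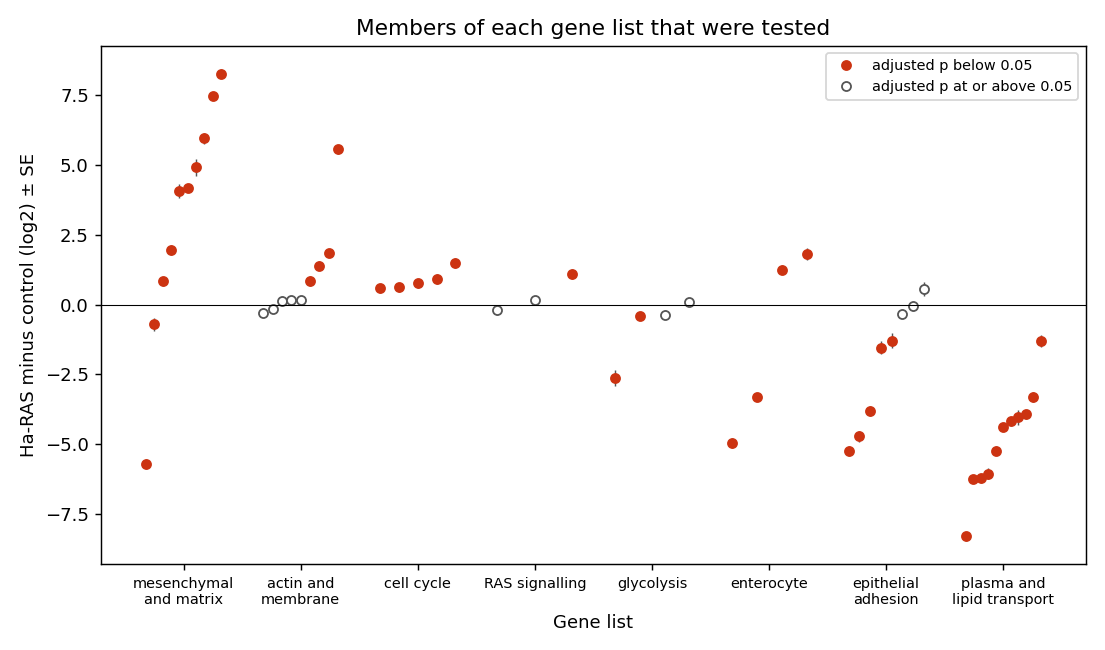
Log2 difference between Ha-RAS and control (points) with its standard error (bars) for the 54 listed probes that were tested, grouped by list and ordered by size within each. Filled red points had an adjusted p below 0.05. The plasma and lipid transport members all lie below 0 and the cell cycle members all above it, while the mesenchymal and matrix list holds 8 probes above and 2 below.

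Probes without a gene name filled the remaining places among the largest changes. GI_22027654-S had the highest difference after SPARC and ANXA1 among probes detected on all 4 arrays. It read 111.7 and 118.6 in control and 2907.5 and 2719.9 in Ha-RAS cells, 36.0-fold higher (adjusted p = 2.27e-09), or 21.0-fold without background correction. GI_34147323-S and GI_6006015-S came next to VIM among transcripts detected in Ha-RAS and not in control cells. Their bounds were 106-fold and 92.9-fold (adjusted p = 9.46e-10 and 9.96e-10). GI_6006015-S was also detected on both Ki-RAS arrays, at 316.0 and 345.9. In the other direction, GI_32526906-S fell 37.6-fold from 1901.9 and 2152.0 to 119.5 and 113.1 (adjusted p = 7.95e-09), or 20.3-fold without background correction, while remaining detected. GI_9845517-S and GI_16507959-S were lost after APOA1 in order of bound with values of 147-fold and 146-fold (adjusted p = 3.08e-10 for each).

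These Ha-RAS levels were then set beside those of Ki-RAS cells. The difference in this contrast does not use the control level, but the control arrays enter the spread behind its p-values. The probes were those detected in Ha-RAS or control cells, whatever their detection in Ki-RAS cells. Over all probes tested 58% differed between the transformed lines. Each of the 10 mesenchymal and matrix probes was higher in Ha-RAS than in Ki-RAS cells, as were 3418 of all 10391 probes tested. For FN1 and CTGF this was no gain over control, since both transformed lines read below the control arrays. VIM read 75.0 and 75.6 on the Ki-RAS arrays, where it was undetected, as in control cells (at least 188-fold between the lines, adjusted p = 8.69e-10). S100A4 read 84.0 and 86.6 with the isoform probe, so that the Ha-RAS level was above and the Ki-RAS level below that of control, with a log2 difference of 7.65 between the lines (adjusted p = 1.97e-08). SPARC (1591.4 and 1655.9), TIMP1 (578.1 and 426.0) and PLAU (555.2 and 610.2) read above the control arrays in the Ki-RAS line too, yet Ha-RAS levels exceeded these by 2.53, 2.09 and 1.75 on the log2 scale (adjusted p = 4.97e-07, 1.02e-05 and 5.76e-06). FN1 was lower in Ki-RAS than in Ha-RAS cells, at 95.8 and 89.0 (adjusted p = 0.000135).

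The plasma proteins mostly did not differ in this way. Of 11 probes 10 showed no difference between the transformed lines that passed the test, being undetected in both, where signals at background allow no comparison of levels. APOE was the exception and was lower in Ha-RAS cells (log2 difference -2.06, adjusted p = 4.75e-06). EPCAM too was lower in Ha-RAS than in Ki-RAS cells, where it read 1758.6 and 1342.0 (log2 difference -4.04, adjusted p = 5.31e-08). Its list had no common direction, as 4 of the 8 epithelial and adhesion probes tested differed between these lines. Of the 4, LGALS3 and DSP were higher in Ha-RAS cells (log2 differences 2.04 and 0.73, adjusted p = 2.89e-05 and 0.0305). KRT8 read 6855.5 and 7324.8 in Ki-RAS cells and did not pass the test between the lines (adjusted p = 0.814). Other changes against control were also present in the Ki-RAS line. VIL1, TFF1, CEACAM5 and FABP1 were undetected there. FABP5, ANXA2 and S100A11 read above the control arrays in it too, and did not pass the test between the lines (adjusted p = 0.533, 0.861 and 0.491).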

How the data were processed

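Per the labels' protocols, RNA of 6 Caco-2 samples was amplified, biotin-labelled and read on Illumina bead arrays. The deposited signal of a probe is a mean intensity over its beads, with the bead spread as a further intensity column and a detection score, per the file headers. Per the series' design text the authors did not normalize these intensity values, and BeadStudio 1.5.13 is named in the submitters' processing notes. The sources used here do not say whether background had been removed. The lowest deposited signal among the 24350 probes was 38.7 units. A second deposited table repeats the same values (0 cells differ). After 4 bacterial probes were left out, background was corrected with limma's nec (limma 3.58.1, R 4.3.3; detection p as 1 minus the score; offset 16), followed by log2 and quantile normalization. lmFit and eBayes were run over all 6 arrays with 3 group means (3 residual and 7.17 prior degrees of freedom), two-sided, with Benjamini-Hochberg adjustment over 10391 probes with a detection score of at least 0.99 on both arrays of Ha-RAS or control. The procedure was tested on simulated data in which few probes changed, all of them detected on all 4 arrays. That setting covers neither a change as wide as the one found here nor probes at background in 1 group.

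A fold written "at least" sets the brighter group's mean against the mean, per array of the other group, of the higher of the probe's signal and the lowest detected signal. Such bounds hold for this background correction. Of 101 sequence record numbers in 10 lists, 58 were on the array, and 54 of these were tested. Of their 57 gene symbols 56 are current in RefSeq and CTGF is an older name of CCN2. The lists on translation (no record on the array) and on other lineages (2 probes, undetected) gave no test. Some other listed genes are not reported here. The members and lists were chosen with earlier results of these data known. Named by size were the 3 highest and 3 lowest differences among called probes detected on all 4 arrays. Also named were the 3 largest bounds in each direction among called probes detected in only 1 of the Ha-RAS and control groups. The series' design text calls the replicates biological without saying what separated them, and the p-values rest on the spread between these arrays, whose number limits the precision.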

Additional observations from a re-analysis of the deposited data

Results flagged for a closer look

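Of 60 named probes tested, 32 had a Ha-RAS effect against control that differed from the Ki-RAS effect, by the test of Ha-RAS against Ki-RAS itself (limma adjusted p at or below 0.0305). That is 53.3% of them, below the 58% of all probes tested that differed. Both effects share the control level, which cancels in that difference, while the control arrays still enter the spread. The differences below are Ha-RAS minus Ki-RAS on the log2 scale, and 22 were above and 10 below 0. For 8 probes 1 of the transformed lines did not detect the transcript, so that the fitted value depends on the background correction and only a bound is measured.

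Those undetected in Ki-RAS cells had fitted values of 8.04 for VIM (at least 188-fold), 7.49 for the all-isoform probe of S100A4 (at least 144-fold), 6.97 for GI_34147323-S (at least 106-fold), 2.91 for CTGF (at least 5.55-fold), 2.81 for IGFBP7 (at least 4.80-fold) and 1.54 for MSN (at least 1.99-fold). Undetected in Ha-RAS cells were GI_9845517-S, fitted at -4.81 (at least 17.7-fold lower), and JUP, fitted at -0.98 (at least 1.61-fold lower).

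Of the others above 0, the mesenchymal and matrix transcripts were at 7.65 (S100A4, isoform probe, detected on 1 of 2 Ki-RAS arrays), 3.04 (TGFBI), 2.53 (SPARC), 2.09 (TIMP1), 1.75 (PLAU) and 1.31 (FN1), and ANXA1 was at 3.82. Enzymes and cell cycle genes were at 2.66 (CA2), 1.60 (LDHA), 1.27 (CKS2), 1.26 (RRM2) and 0.76 (TYMS). LGALS3 was at 2.04 and DSP at 0.73. The unnamed probes GI_22027654-S and GI_6006015-S were at 5.05 and 3.43.

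Below 0 were EPCAM at -4.04, APOE at -2.06, EZR at -1.42, ALDOC at -1.08, GPI at -0.97, TAGLN2 at -0.94, GAPDH at -0.50 and ARAF at -0.44. Against control, 6 of the 32 (LDHA, EZR, DSP, ARAF, GAPDH and TAGLN2) did not pass the test in Ha-RAS cells. For 6 probes (both of S100A4, TGFBI, IGFBP7, CA2 and GPI) the Ha-RAS and Ki-RAS lines were called in opposite directions against control.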

How the results depend on the processing

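With 1 array left out at a time, the probes called between Ha-RAS and control ranged from 4395 to 5194, against 5830 with all arrays, and those between Ha-RAS and Ki-RAS from 4701 to 6181, against 6024. Only Ha-RAS and control arrays were left out in turn, never a Ki-RAS array. The range for Ha-RAS against Ki-RAS thus does not cover the loss of a Ki-RAS array. Requiring a 2-fold change left 2594 calls against control (1262 higher, 1332 lower) and 2580 against Ki-RAS. The other alternatives (background correction, offset, normalization, filters, 4 arrays alone, an intensity trend, a stricter threshold) kept each count within 1.5 times. The replicate letters did not pair the arrays, since deviations correlated at -0.18 between control and Ha-RAS, 0.11 between control and Ki-RAS and -0.18 between Ha-RAS and Ki-RAS. The replicate block gave 5668 calls and ended that of GPI (adjusted p = 0.0601), and a crossed replicate block, added after seeing these correlations, 6138.

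Direction turned for 3 named probes, none of which passed the test at any of these settings. KRT8 was at 0.157 with a common median, 0.139 without Ha-RAS replicate B and 0.128 without control replicate A, CFL1 at 0.043 with a common median and TAGLN2 at -0.04 without Ha-RAS replicate A. With 1 array left out KRT8 ranged from -0.223 to 0.139 and TAGLN2 from -0.04 to 0.282. The cause was not tested. Background correction sets the size of changes that start or end at background, as VIM and APOA1 were at 6.66 and -6.77 without it, and the other transcripts given "at least" folds moved likewise.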
